A study of Homo sapiens with 18 samples.

Results

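The genes described here are those whose response to MDM2 inhibition differed in size between replicates 1 to 3 and replicates 4 to 6. The cells were OCI-AML3, a human acute myeloid leukaemia line. The genes were chosen by a treatment-by-set interaction: the difference between the mean of all arrays treated with RG7112 or HDM201 and the mean of the DMSO arrays was taken within replicates 1 to 3 and within replicates 4 to 6, and one was subtracted from the other for each of 21448 probes. Members are the 39 probes, 0.182% of all tested, with an interaction whose p lay under 0.05 after Benjamini-Hochberg adjustment over all probes in limma. Of these, 35 carry 1 gene symbol and 4 carry none here. Because the interaction chose them, its values below are a description and no test of it is given.

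The cultures received the solvent DMSO, RG7112 at 2 µM or HDM201 at 500 nM for 24 h, and each group had 6 arrays. All 3 groups shared the cell line, a genotype labelled wildtype, and growth in RPMI medium with fetal calf serum. The labels call the replicates biological and number them 1 to 6. They do not name the sets or say how the cultures were separated, so the p-values reflect only the spread among these samples, and anything else that separated the sets cannot be told apart from them. Every value is a log2 signal, so a difference of 1 is 2-fold and precision depends on how many arrays were run.

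MDM2 is a ubiquitin ligase that binds the transcription factor p53 and marks it for degradation. When the pocket of MDM2 is occupied by an inhibitor, p53 accumulates and switches on genes of cell cycle arrest, DNA repair, stress signalling and apoptosis, and MDM2 itself is among them. The inhibitor of cyclin-dependent kinases p21, encoded by CDKN1A, then leads indirectly to repression of many cell cycle genes, in part through the DREAM complex.

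Array medians lay between 6.44 and 6.57, and the lowest signal on an array between 2.66 and 2.85. The myeloid markers LYZ, PTPRC, ITGB2, SPI1, CEBPA and ANPEP lay at the 86.8th percentile of mean signal or above, and MPO, another of the 7 measured, at the 36.3rd. RG7112 replicates 1 to 3 correlated with the other arrays of their own group and set at 0.984, 0.981 and 0.973 over all probes, against 0.993 to 0.995 for every other array. RG7112 replicate 3 also had an interquartile range of 3.45, against 3.70 to 3.91 elsewhere. Without RG7112 replicate 3 the interaction called 85 probes and the 39 members were among them. Leaving out each other array in turn gave 10 to 45, and the count moved by more than 1.5 times without DMSO replicates 1 to 6 (19, 11, 17, 16, 10 and 16), without HDM201 replicate 3 (24) or 6 (18), and without RG7112 replicate 4 (22) or 6 (21). Only FCER1A, CLCA2, DSEL, PLTP, THBS1, TP53I3, ARRDC2 and ZNF561, 8 of the 39, were called with each of the 18 arrays left out. The interaction kept its sign in all 1078 values computed for members under the alternatives. Members were chosen for large interactions on these same arrays, so the kept sign was nearly fixed in advance and is no test.

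Members fell into 3 patterns. In 33, or 0.154% of all probes, the signal rose with treatment and the difference from DMSO was larger in replicates 1 to 3. In 1, PLK4 (0.00466%), the signal fell with treatment and the difference was larger in replicates 1 to 3. In 5 (0.0233%) the difference from DMSO was higher in replicates 4 to 6. These 3 patterns are the direct outcome of the selection.

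The stretches of 250 bases upstream of the annotated starts of CLCA2 and FCER1A, which had the largest interactions, and of CDKN1A are shown for comparison. CDKN1A, at -0.83, had the smallest interaction in size among members of the opposite pattern. The stretches are from RefSeq (GRCh38.p14), on the plus strand at chr1:86423921-86424170, chr1:159302086-159302335 and chr6:36678464-36678713. Capitals mark TTTGAA or its reverse complement, a core of the cell cycle element known as CHR.
CLCA2: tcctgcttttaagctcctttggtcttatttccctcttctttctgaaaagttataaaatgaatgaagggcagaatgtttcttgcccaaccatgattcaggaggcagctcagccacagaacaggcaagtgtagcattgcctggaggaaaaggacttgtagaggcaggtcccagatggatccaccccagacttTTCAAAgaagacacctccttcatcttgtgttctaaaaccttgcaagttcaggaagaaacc
FCER1A: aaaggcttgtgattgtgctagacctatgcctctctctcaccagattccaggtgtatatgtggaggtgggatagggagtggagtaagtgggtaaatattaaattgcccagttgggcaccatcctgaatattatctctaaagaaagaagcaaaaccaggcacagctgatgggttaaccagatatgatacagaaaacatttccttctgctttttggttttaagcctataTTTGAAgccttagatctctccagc
CDKN1A: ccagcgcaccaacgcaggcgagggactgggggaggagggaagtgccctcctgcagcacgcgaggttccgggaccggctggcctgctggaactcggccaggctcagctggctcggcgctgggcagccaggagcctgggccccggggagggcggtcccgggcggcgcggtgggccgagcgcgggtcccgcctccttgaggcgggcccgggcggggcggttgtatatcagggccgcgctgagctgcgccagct
The CLCA2 and FCER1A stretches held 1 match each and the CDKN1A stretch held none. RefSeq windows around the start, ending shortly downstream of it, were found for 30 member genes, with 42 windows in all, and 35116 windows exist for all genes. TTTGAA on either strand was present in 14.3% of the members' windows and 15.2% of all windows, and CCAAT in 33.3% and 34.6%. TTCGAA, TTTCCCGC and TTTGGCGC were in no window of a member, against 1.45%, 1.63% and 0.652% of all windows. The half-site of the p53 element, a search added after the data were seen, was likewise in none of the 42, against 6.63% of all, which says only that these letters are not in these windows. TTTGAA and TTCGAA cannot match at the same position, and a match describes letters, not the binding of a factor.

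Within replicates 1 to 3 the 33 probes that rose more there stood 0.99 to 6.17 above DMSO (median 2.50), and within replicates 4 to 6 they stood 0.17 to 3.95 above it (median 1.20). The interaction ranged from 0.77 to 2.47 with a median of 1.36. The fold change in replicates 1 to 3 was thus 1.71 to 5.54 times that in 4 to 6.

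**Figure D1:**
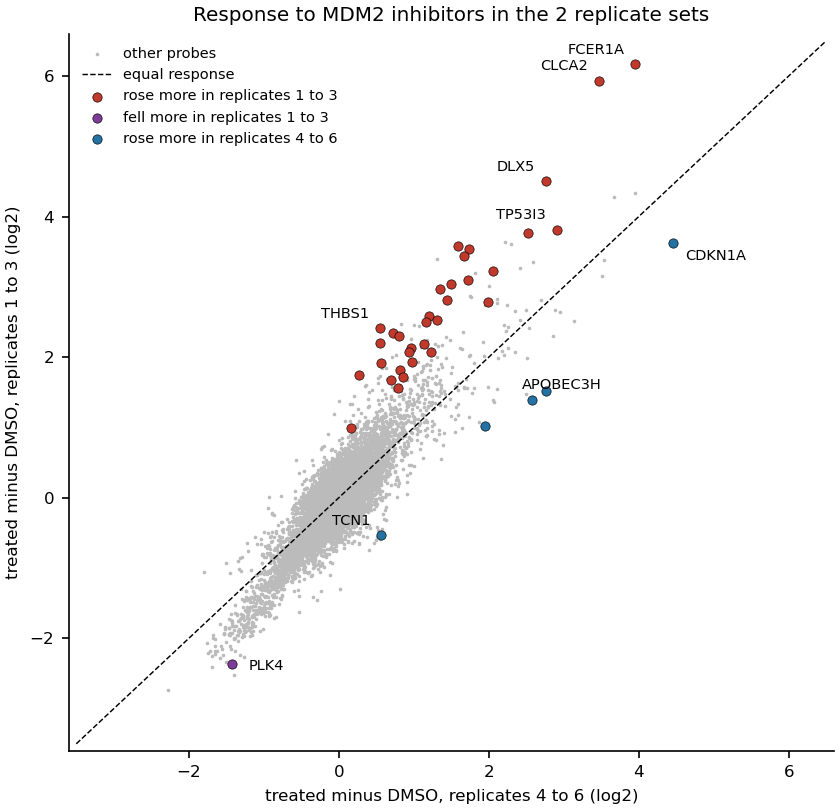
Each point is 1 of 21448 probes, with the treated minus DMSO difference (log2) in replicates 4 to 6 on the x axis and in replicates 1 to 3 on the y axis. The 33 red probes lie above the dashed line of equal response, the 5 blue probes below it at the right, and PLK4 (purple) lies below it among the probes with lower signal after treatment.

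Of the p53 target list, 4 of 45 measured genes were members (8.89%, against 0.182% of all probes). Among probes that rose at least 2-fold over both sets the share was 12.1%. CLCA2, a protein of the chloride channel accessory family that p53 induces, had the largest interaction of all. Its probe, TC0100008921.hg.1, read 3.23, 3.26 and 3.51 on the DMSO arrays of replicates 1 to 3 and 3.25, 3.37 and 3.63 on those of 4 to 6, near the lowest signals of the arrays. On the 6 treated arrays of replicates 1 to 3 it read 8.53 at the lowest, 9.37 at the median and 9.77 at the highest, and on those of 4 to 6 it read 6.46, 6.71 and 7.46. The DMSO arrays of both sets overlapped, and every treated array of replicates 1 to 3 was above every one of 4 to 6. Treated arrays exceeded DMSO by 5.93 in replicates 1 to 3 and 3.46 in 4 to 6, a difference of 2.47 ± 0.30 (SE, 3 DMSO and 6 treated arrays per set). Over both sets CLCA2 rose by 4.70 ± 0.15 (SE) on the signal scale (limma adjusted p = 8.31e-14), and no fold is given because the DMSO signals lay near the lowest of the arrays.

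TP53I3, a quinone oxidoreductase named for its induction by p53, gave the tightest values of the members. DMSO arrays read 7.24 to 7.50 in replicates 1 to 3 and 7.34 to 7.55 in 4 to 6. Treated arrays had a lowest, median and highest signal of 11.09, 11.15 and 11.42 in replicates 1 to 3 and of 10.22, 10.24 and 10.47 in 4 to 6. The sets were thus alike without treatment and separate with it, by 0.88, and the responses were 3.81 and 2.90. GDF15, a stress-induced cytokine of the TGF-beta superfamily, read 10.71, 10.93 and 11.52 on treated arrays of replicates 1 to 3 and 9.04, 9.49 and 9.90 on those of 4 to 6. Its DMSO arrays, at 7.07 to 7.46 and 6.61 to 7.27, overlapped between the sets. Its responses were 3.76 and 2.52, so GDF15 was 13.5-fold and 5.73-fold above DMSO. CDKN1A, the remaining member on the p53 target list, followed the opposite pattern and is described below. Whether members outside that list are p53 targets was not tested.

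FCER1A encodes the IgE-binding subunit of the high-affinity receptor for that antibody, best known from mast cells and basophils. Its probe, TC0100010252.hg.1, read 3.38, 3.78 and 3.82 on DMSO arrays of replicates 1 to 3 and 3.41, 3.55 and 3.55 on those of 4 to 6. Treated arrays of replicates 1 to 3 had a lowest, median and highest signal of 9.18, 9.95 and 10.07, and those of 4 to 6 of 7.04, 7.45 and 7.87. All 12 treated arrays were far above DMSO, and those of replicates 1 to 3 formed a separate, higher group. The response was 6.17 in replicates 1 to 3 and 3.95 in 4 to 6, a difference of 2.22 ± 0.24 (SE). As for CLCA2, the DMSO signals were near the lowest of the arrays, and no fold is given. FCER1A was the only member among 19 measured mast cell and basophil genes, 2 of which rose over both sets while none fell. Of the 19, 12 were below the median signal of all probes. The mean of the list, FCER1A included, lay at 5.32 to 5.49 on DMSO arrays, 5.72 to 5.92 on treated arrays of replicates 1 to 3 and 5.63 to 5.73 on treated arrays of 4 to 6. Its part in the result was not tested. The lists of lymphocyte, of erythroid and megakaryocyte, and of fibroblast and epithelial genes held no member. Fewer cells of a type and less RNA per cell cannot be told apart in bulk samples.

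Other surface receptors and adhesion molecules were among the 33. Members are grouped here by textbook role, after their values were seen. ITGAM, the CD11b chain of the integrin of monocytes and neutrophils, read 8.08, 8.75 and 9.08 (lowest, median and highest) on treated arrays of replicates 1 to 3 and 7.04, 7.40 and 7.64 on those of 4 to 6, and its DMSO arrays at 5.48 to 6.34 overlapped. Its responses were 2.82 and 1.45. It was the only member among 32 measured monocyte and macrophage genes, of which 14 had the larger response in replicates 1 to 3 (43.8%, against 63.7% of all probes). AXL, the receptor tyrosine kinase for GAS6, had responses of 2.53 and 1.31, and EPHA2, a receptor for ephrin-A ligands, of 2.34 and 0.73. EPHA2 was the single member of the 33 whose treated arrays overlapped between the sets, with 6.59 at the lowest in replicates 1 to 3 and 6.69 at the highest in 4 to 6. PLXNB3, a semaphorin receptor, gave 2.58 and 1.20, and CD82, a tetraspanin that modulates cell adhesion, 2.08 and 0.94. RELL1, a relative of the receptor RELT, gave 1.82 and 0.82.

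Besides GDF15, 3 of the 33 encode proteins released from the cell. THBS1 encodes thrombospondin 1, a matrix glycoprotein that inhibits angiogenesis. It read 5.61, 5.90 and 6.00 on DMSO arrays of replicates 1 to 3 and 6.07, 6.10 and 6.25 on those of 4 to 6. Treated arrays of replicates 1 to 3 had a lowest, median and highest signal of 7.96, 8.22 and 8.62, and those of 4 to 6 of 6.22, 6.83 and 7.07. In DMSO the arrays of replicates 1 to 3 were all lower, and after treatment they were all higher. The response was 2.41 in replicates 1 to 3 and 0.54 in 4 to 6, where the lowest treated array lay within the DMSO range. PLTP, the phospholipid transfer protein of plasma lipoproteins, read 11.60, 12.17 and 12.60 on treated arrays of replicates 1 to 3 and 10.62, 10.73 and 11.05 on those of 4 to 6, with DMSO at 9.10 to 9.29. EDIL3, a secreted ligand of integrins, responded by 2.13 and 0.96.

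**Figure D2:**
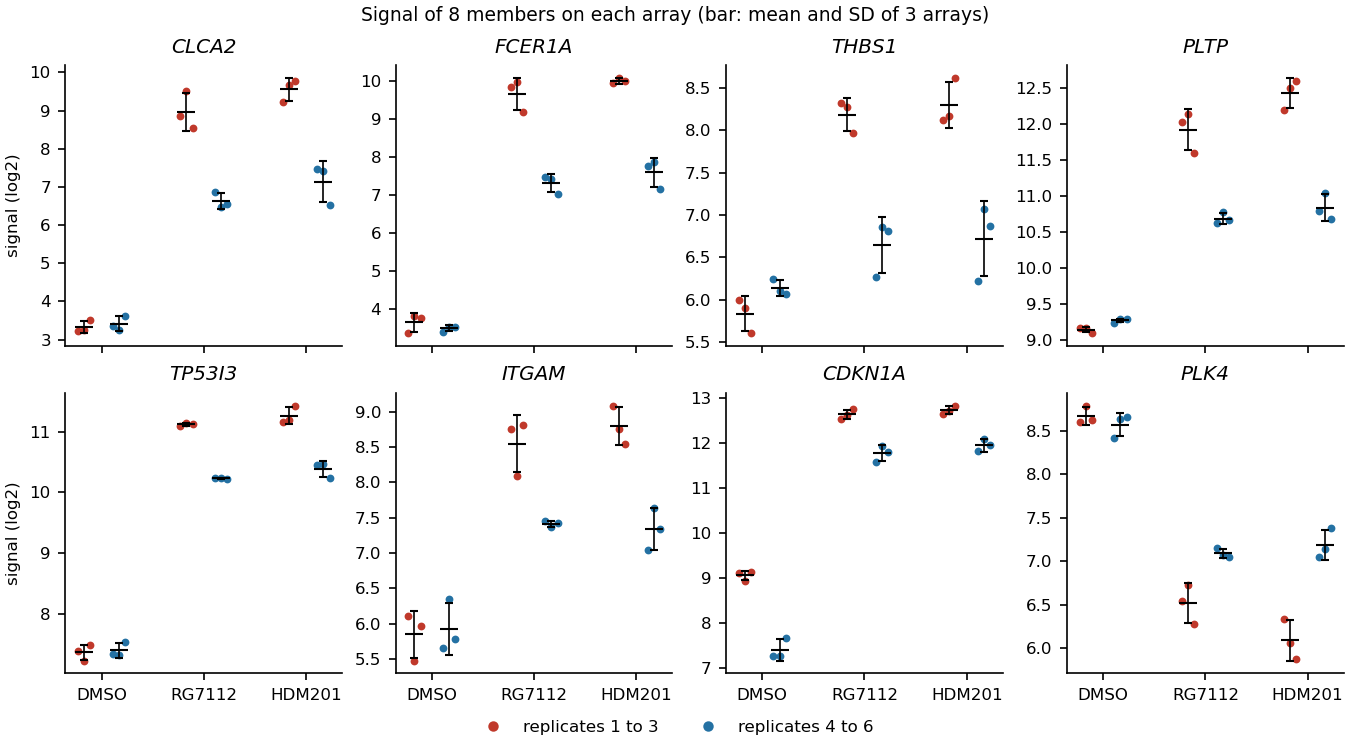
Log2 signal on each array (points), with the mean and SD of the 3 arrays of a group and set (bars), for 8 members by treatment. For CLCA2, FCER1A, THBS1, PLTP, TP53I3 and ITGAM the treated arrays of replicates 1 to 3 (red) lie above those of 4 to 6 (blue), for PLK4 below, and CDKN1A differs between the sets already on DMSO.

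Among the members with roles in actin or cell polarity were ABLIM1, BAIAP2L1 and PARD6G. The actin cytoskeleton and matrix list itself held 1 member of 20 measured genes, THBS1, with a median interaction of -0.02. In that list 14 genes (70%) had the larger response in replicates 1 to 3, against 63.7% of all probes. Without RG7112 replicate 3, 10 did (50%, against 59.6% of all probes). ABLIM1, an actin-binding LIM protein, stood 2.97 and 1.35 above DMSO in replicates 1 to 3 and in 4 to 6. BAIAP2L1, which links membrane curvature to actin, stood 1.75 and 0.27 above it, and within replicates 4 to 6 it did not pass (limma adjusted p = 0.469). THBS1 and RHOB did not pass there either (limma adjusted p = 0.0555 and 0.446), and 30 of the 33 passed within both sets. RHOB responded by 0.99 and 0.17. PARD6G, a subunit of the PAR polarity complex, responded by 3.23 and 2.05.

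Transport and membrane traffic were represented by UNC13A, which primes synaptic vesicles, by SYTL2 and MVB12B, which act in vesicle docking and in the ESCRT-I complex, by the lipid transporter family member ABCA13 and by the arrestin-like ARRDC2. UNC13A read 7.12, 7.79 and 8.26 on treated arrays of replicates 1 to 3 and 5.53, 5.90 and 6.24 on those of 4 to 6, with DMSO at 3.97 to 4.38 in both sets. Its treated groups did not overlap and its DMSO groups did. ARRDC2 responded by 1.92 and 0.56, ABCA13 by 2.30 and 0.80, SYTL2 by 1.93 and 0.97, and MVB12B by 2.08 and 1.23.

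Nuclear proteins included PYHIN1 and SLFN5, both of interferon-inducible families, the homeobox factor DLX5 and the zinc finger protein ZNF561. PYHIN1 responded by 3.58 and 1.60, SLFN5 by 3.44 and 1.67, DLX5 by 4.50 and 2.76, and ZNF561 by 2.19 and 1.14. None of the 29 measured genes of the interferon response list was a member, and over both sets none of them rose and 12 fell. IER3, an immediate early gene that modulates apoptosis, responded by 2.50 and 1.16, and it was the only member among 27 measured immediate early genes. Of those 27, 21 had the larger response in replicates 1 to 3 (77.8%, against 63.7% of all probes), and 19 to 23 did under the alternatives, the fewest with RG7112 alone or with array medians subtracted. The enzymes were DSEL, a relative of dermatan sulfate epimerase, RFNG, a glycosyltransferase that modifies Notch, and ALDH7A1, an aldehyde dehydrogenase of lysine breakdown. DSEL read 6.00, 6.33 and 6.87 on treated arrays of replicates 1 to 3 and 3.72, 4.21 and 4.31 on those of 4 to 6. Its DMSO arrays read 3.99 to 4.39 in replicates 1 to 3 and 3.50 to 3.68 in 4 to 6, without overlap. The latter were near the lowest signals of the arrays. DSEL responded by 2.20 and 0.55, and it passed within replicates 4 to 6 (limma adjusted p = 0.0181). RFNG responded by 1.68 and 0.69 and ALDH7A1 by 1.57 and 0.79. The unnamed probes TC1500010157.hg.1 and TC0800012087.hg.1 complete the 33, with 3.10 and 1.72 and with 2.79 and 1.99.

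PLK4, the kinase that starts centriole duplication, was the member that fell. Its probe, TC0400008664.hg.1, read 8.60 to 8.79 on DMSO arrays of replicates 1 to 3 and 8.42 to 8.65 on those of 4 to 6, which overlapped. Treated arrays had a lowest, median and highest signal of 5.87, 6.30 and 6.73 in replicates 1 to 3 and of 7.04, 7.10 and 7.38 in 4 to 6, with no overlap. The response was -2.37 in replicates 1 to 3 and -1.43 in 4 to 6, and over both sets PLK4 fell by 1.90 ± 0.08 (SE; limma adjusted p = 8.63e-12).

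The 5 members that stood higher above DMSO in replicates 4 to 6 differed between the sets chiefly without treatment. CDKN1A read 8.94, 9.11 and 9.13 on DMSO arrays of replicates 1 to 3 and 7.27, 7.27 and 7.68 on those of 4 to 6. Treated arrays had a lowest, median and highest signal of 12.53, 12.67 and 12.82 in replicates 1 to 3 and of 11.58, 11.87 and 12.09 in 4 to 6. Replicates 1 to 3 were thus the higher ones with and without treatment, by 0.82 and by 1.65. The response was 3.62 (12.3-fold) in replicates 1 to 3 and 4.45 (21.9-fold) in 4 to 6. The highest signal of any probe on an array lay between 13.35 and 13.53, and whether the upper end of the signal range bears on this difference was not tested.

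APOBEC3H, a cytidine deaminase that restricts viruses, read 7.08 to 7.30 on DMSO arrays of replicates 1 to 3 and 5.78 to 6.15 on those of 4 to 6. Treated arrays spanned 8.30 to 8.87 and 8.32 to 8.63, so the sets were separate on DMSO and overlapped after treatment. Its responses were 1.39 and 2.58. The unnamed probes TC0800012330.hg.1 and TC0300009324.hg.1 had the same form, with DMSO differences of 1.48 and 1.04 and treated differences of 0.23 and 0.11. TCN1, which encodes the vitamin B12 carrier haptocorrin of neutrophil granules, was the single member whose responses had opposite signs, at -0.53 in replicates 1 to 3 and 0.56 in 4 to 6. Its DMSO arrays read 7.10 at the median in replicates 1 to 3 and 5.43 in 4 to 6, with no overlap, and its treated arrays spanned 6.07 to 7.04 and 5.72 to 6.42. TCN1 did not pass over both sets (0.01 ± 0.11 SE; limma adjusted p = 0.944).

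Where the sets differed was itself split by pattern. Among the 33 the difference between replicates 1 to 3 and 4 to 6 was -0.52 to 0.59 on DMSO arrays (median -0.07) and 0.51 to 2.39 on treated arrays (median 1.29). In 23 of the 33 the DMSO mean was the lower one in replicates 1 to 3, and in 31 it differed by less than 0.5 in size. The treated arrays of replicates 1 to 3 were all above those of 4 to 6 in 32 of the 33, against 2.28% of all probes. Among the 5 the DMSO difference was 1.04 to 1.65 and the treated difference 0.07 to 0.82. The interaction is the treated minus the DMSO difference, so these values restate the selection and carry no test.

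**Figure D3:**
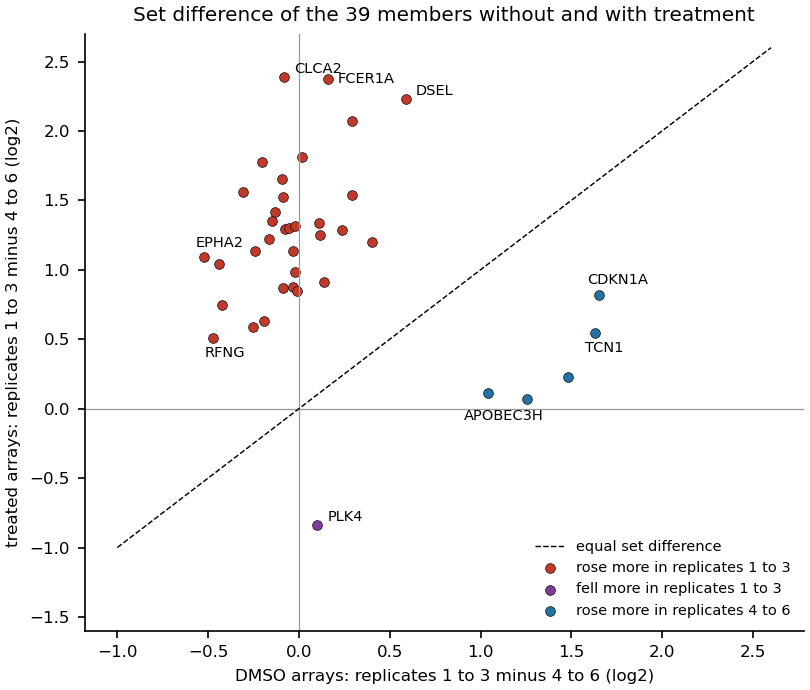
Difference between replicates 1 to 3 and replicates 4 to 6 (log2) on DMSO arrays (x axis) and on treated arrays (y axis) for the 39 members. The 33 red members lie high near an x value of 0, the 5 blue members lie to the right between 1.04 and 1.65, and PLK4 (purple) lies at -0.84 on the y axis.

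The selection did not use the contrasts orthogonal to it in this balanced design, although they share its estimate of spread. The mean response over both sets passed in 38 of the 39 members, TCN1 being the exception. All 33 of the first pattern rose, by 0.58 to 5.06 with a median of 1.83, and 4 of the 5 rose. Of all probes 25.1% passed this test, with 11.7% higher and 13.3% lower. The difference between the sets over all 18 arrays passed in 38 members, RFNG being the exception (0.18 ± 0.08 SE, adjusted p = 0.220). Replicates 1 to 3 were the higher ones in 37 of these and the lower ones for PLK4. Of all probes 8.36% passed, 3.92% with replicates 1 to 3 higher. For FCER1A this difference was 1.64 ± 0.11 (SE; limma adjusted p = 6.52e-08), and for CDKN1A 1.10 ± 0.07 (adjusted p = 5.03e-08).

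The compounds were compared at single and unequal concentrations, and their effects share the DMSO arrays. In replicates 1 to 3 CLCA2 stood 5.64 above DMSO with RG7112 and 6.23 with HDM201, and in 4 to 6 it stood 3.21 and 3.72 above it. FCER1A stood 6.00 and 6.34 above DMSO in replicates 1 to 3, and 3.81 and 4.09 in 4 to 6. ABLIM1 had the widest difference between the compounds among members, with 2.53 and 3.40 in replicates 1 to 3 and 1.19 and 1.52 in 4 to 6. Each compound taken alone gave every member's interaction the sign of the pooled one, and HDM201 gave the larger value in 31 of the 33. The selection used the mean of both interactions, so the shared sign largely follows from it and does not compare the compounds. The count of 31 has no share of all probes beside it and is a description.

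HDM201 minus RG7112 was not used by the selection. It passed in 0 of 39 members and in 0% of all probes in limma. An unadjusted p under 0.05 was found in 13 of the 39 members, against 1002 of all 21448 probes. The share was thus higher among members, which is a description and no test. Members differed by -0.25 to 0.59 with a median of 0.21, and the median standard error was 0.12. Array weights gave 4 calls over all probes, and leaving out RG7112 replicate 2 gave 1. The change of this difference between the sets also passed in 0 of 39 members and in 0% of all probes. There 4 of the 39 members and 764 of all 21448 probes had an unadjusted p under 0.05, again a higher share among members. Neither count of 0 shows that the compounds act alike.

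Read over all probes, responses tended to be larger in replicates 1 to 3 well beyond the 39. In size, 63.7% of all probes had the larger response there. The share was 59.6% without RG7112 replicate 3 and 61.3% with HDM201 and DMSO arrays only. Whether the lower correlations of RG7112 replicates 1 to 3 bear on the values in this paragraph was not tested. Within replicates 1 to 3 the response passed for 4254 probes, or 19.8%, and within 4 to 6 for 2377, or 11.1%. The latter count was 1455 without DMSO replicate 6, and array weights gave 7478 and 4774. Without RG7112 replicate 3 the counts were 4605 and 3352. Both sets called 2008 probes in the same direction and 1 in opposite directions, while 2245 were called in replicates 1 to 3 alone and 368 in 4 to 6 alone. Passing in one set and not the other is no test of the difference. The orthogonal slope of the response in replicates 1 to 3 on that in 4 to 6 was 1.40 across all probes, with r = 0.843, and probes are not independent replicates. It was 1.33 without RG7112 replicate 3, and it takes the noise of both axes as equal. Left to ordinary least squares the slope was 1.12 in that direction and 1.58 in the inverse one. Among the 45 measured p53 targets the slope was 1.07.

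Gene lists placed the members in this wider pattern. Their genes come from general knowledge of the pathways. Of the p53 targets 42 of 45 rose over both sets and none fell, and 24 had the larger response in replicates 1 to 3, with medians of 1.52 and 1.39. Of these 45, 4 (8.89%) were members, 3 with the larger response in replicates 1 to 3 and CDKN1A with the smaller. Members made up 0.182% of all probes and 12.1% of the 298 that rose at least 2-fold over both sets. The share in the p53 list was thus not above that of strongly raised probes. Lists holding a lone member or none are to be read beside the same shares. TNFRSF10B, the death receptor for TRAIL, responded by 1.695 in both sets, and ENPP2, which encodes autotaxin, by 4.33 in replicates 1 to 3 and 3.94 in 4 to 6. MDM2 responded by 2.30 and 2.86, with DMSO arrays 0.89 higher in replicates 1 to 3, and was outside the members (adjusted p = 0.0905 for the interaction). BAX, an executor of mitochondrial apoptosis, responded by 0.78 and 1.09 and was also outside.

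Genes of the cell cycle contributed no member from their lists, and PLK4 was on none of them. All 50 measured genes of the G2/M and mitosis list fell over both sets, and all 50 had the larger response in replicates 1 to 3, with medians of -1.65 and -1.04. CCNB1, the cyclin of mitotic entry, responded by -1.52 and -0.88, and MKI67, a proliferation marker, by -1.53 and -0.92. Of the G1/S and DNA replication list 37 of 39 fell and 38 had the larger response in replicates 1 to 3. E2F1, an activator of that programme, responded by -2.21 and -1.75. By comparison 63.7% of all probes, 97.3% of the 333 that fell at least 2-fold over both sets and 77.9% of the 298 that rose at least 2-fold had the larger response in replicates 1 to 3. On DMSO arrays the sets differed by 0.01 at the median of the G2/M list and by 0.41 at that of the p53 list.

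**Figure D4:**
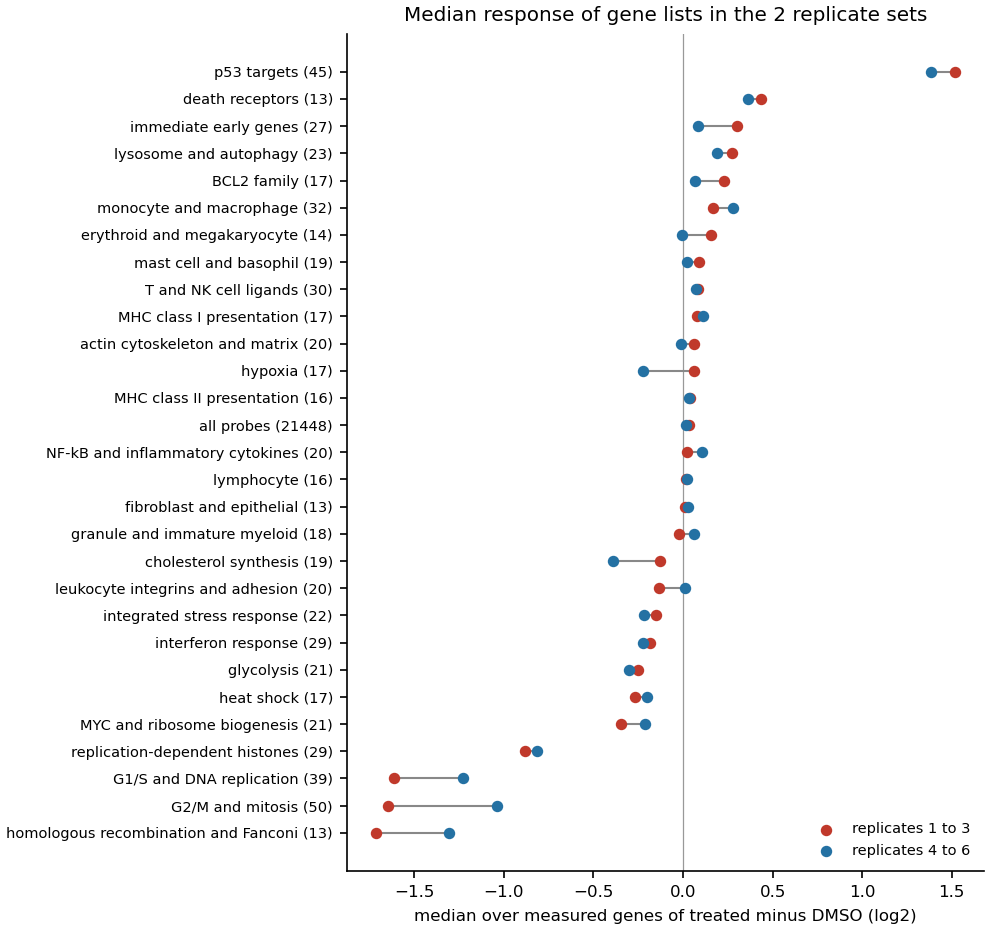
Median treated minus DMSO difference (log2) over the measured genes of each list, in replicates 1 to 3 (red) and 4 to 6 (blue), with the number of genes in brackets. The G2/M list is at -1.65 and -1.04, and the p53 target list at 1.52 and 1.39.

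The edge of the selection ran through similar values. RND3, TCN1 and ITGAM were just inside, with interactions of 0.86, -1.09 and 1.37. CADM1, CFAP74 and IRF2BPL were just outside, with 1.23, 1.17 and 1.00. CSF1, the macrophage growth factor, had an interaction of 1.42 (3.63 against 2.21) and TNFSF4, the ligand OX40L, of 1.01 (3.01 against 2.00), and neither was a member. ACTA2, smooth muscle actin, had -1.01 (1.48 against 2.49) and was outside as well.

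Over the 18 arrays, which share treatment and set, the probes most like CLCA2 were FCER1A, DLX5 and DRAM1, with correlations of 0.996, 0.993 and 0.991. DRAM1, an autophagy regulator, was no member and responded by 2.05 and 1.25. For PLK4 they were KIFC1, AURKB and CKS1B (0.987, 0.986 and 0.984), and for APOBEC3H they were XPC, CYFIP2 and GASK1B (0.979, 0.969 and 0.969).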

How the data were processed

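Biotin-labelled cDNA of total RNA was measured on 18 arrays. The authors deposited log2 values made with oligo and RMA, per the submitters' processing notes, with versions and build not given in the sources used here. RMA normalizes at the level of single oligonucleotides before it summarises them, so arrays keep slightly different medians. Of 21448 probes, 17709 have 1 gene symbol in the platform annotation, 0 several and 3739 none. Some genes are not reported here.

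A linear model was fitted to each probe in limma 3.58.1 (R 4.3.3), with 6 means (3 groups in 2 replicate sets), 12 residual degrees of freedom and adjusted p under 0.05 over all probes. A response is treated minus DMSO within a set, both compounds together; "rose", "fell" and "passed" refer to this adjusted p. The fit was tested on simulated data. The members and lists were chosen with earlier results of these data known. The naming rule takes up to 8 members per pattern, up to 3 members and 1 other gene per list, a fixed set with 23 measured genes and the genes at the threshold. Other members, and the neighbours of the motif and likeness searches, were named after their values were seen.

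Alternatives were another prior, array weights, filters on dim or unnamed probes, other scalings, single compounds, stricter thresholds, a replicate block and leaving out each array. Background correction was done before deposit and could not be varied.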

Additional observations from a re-analysis of the deposited data

Results flagged for a closer look

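Each of the 39 members met the criterion that an effect under one contrast differs between sets of samples by a test of the difference itself, which is the test that chose them. The values in brackets are the difference between the treated minus DMSO effect in replicates 1 to 3 and that in 4 to 6, on the log2 scale. The members with the higher effect in replicates 1 to 3 were CLCA2 (2.47), FCER1A (2.22), PYHIN1 (1.98), THBS1 (1.87), UNC13A (1.80), SLFN5 (1.77), DLX5 (1.75), DSEL (1.64), EPHA2 (1.61), ABLIM1 (1.61), PLTP (1.55), ABCA13 (1.498), BAIAP2L1 (1.48), PLXNB3 (1.39), TC1500010157.hg.1 (1.38), ITGAM (1.37), ARRDC2 (1.36), IER3 (1.34), GDF15 (1.24), AXL (1.22), PARD6G (1.17), EDIL3 (1.17), CD82 (1.14), ZNF561 (1.05), RELL1 (1.01), RFNG (0.98), SYTL2 (0.96), TP53I3 (0.91), RND3 (0.86), MVB12B (0.84), RHOB (0.82), TC0800012087.hg.1 (0.80) and ALDH7A1 (0.77). The member with the deeper fall there was PLK4 (-0.94). Those with the higher effect in replicates 4 to 6 were TC0800012330.hg.1 (-1.26), APOBEC3H (-1.19), TCN1 (-1.09), TC0300009324.hg.1 (-0.93) and CDKN1A (-0.83). The labels give no account of the replicate sets, and what separated them was not tested. Dixon's criterion for a sample apart from the other 5 of its group was met in 0 of 117 member-by-group checks. Each group was pooled over both sets there, and since the members were chosen for a difference between the sets, this count says little about single arrays apart from the rest.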

How the results depend on the processing

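No called result reversed its direction under an alternative. For the members this was nearly fixed in advance, because they were chosen for large interactions on the same arrays. The 39 calls became 478 with array weights, 60 with HDM201 and DMSO arrays only, 5 with RG7112 and DMSO arrays only, and 8 at an adjusted p under 0.01. Of these, 39, 31, 4 and 8 were members. The 34 calls with the larger response in replicates 1 to 3 became 403, 56, 5 and 8 under the same 4 settings. The 5 with the larger response in 4 to 6 became 75 with array weights, 0 with RG7112 alone or at the stricter p, and 3 with 1-symbol probes only, subtracted medians, further quantile normalization or a difference of at least 1. Array weights gave 8563 calls for the response over both sets, 3970 for the set difference, 7478 and 4774 for the responses within replicates 1 to 3 and 4 to 6, and 4 between compounds. RG7112 alone gave 3521, 350, 2507 and 1124 for the first 4 of these. The stricter p gave 890 for the set difference and 2725 and 1406 within the sets. A difference of at least 1 gave 631, 52, 845 and 445. The slope was 1.12 or 1.58 by least squares.

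Leaving out single arrays gave 10 to 85 interaction calls, 8 to 77 with the larger response in replicates 1 to 3 and 1 to 8 with it in 4 to 6. It gave 1455 to 3352 calls within replicates 4 to 6, where the lowest was without DMSO replicate 6, 0 to 1 between compounds and slopes of 1.33 to 1.51. Same-numbered arrays of different groups deviated together at over 0.1 in 16 of 18 pairs when taken from group means. From the 6 fitted means this held in 12 of 18. Arrays of the same number thus shared some deviation. The labels do not call them pairs, and the main fit took no account of the shared part. With a replicate block 48 probes were called, 33 of them members, and 14 of 18 arrays (11 from the fitted means) correlated best with their own number. After the data were seen, the list counts were repeated without RG7112 replicate 3, for each compound and under other scalings: 49 to 50 of the G2/M list and 21 to 26 of the p53 list had the larger response in replicates 1 to 3. With 3 arrays per group and set, an interaction near the median standard error of 0.18 could not be detected, and much larger ones could also go uncalled. The highest unadjusted limma p among members was 8.44e-05, and no member had an interaction under 0.77 in size. The G2/M list had a median interaction of -0.57 and held no member.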
